A study of Homo sapiens with 7 samples.

Results

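The cells described here are heart muscle cells of day 11 that held mRNA of IRX4, a homeobox transcription factor that marks the ventricle. They were selected on measured values in the day 11 table. A cell counted as muscle when the share of its unique molecular identifiers (UMIs, 1 per captured transcript) that came from TNNT2, ACTN2, MYH6 and TNNI1 together reached 0.25 of the 95th percentile of that share, which was 1.953% of UMIs and put the threshold at 0.4882%. Of the muscle cells, those with at least 1 UMI of IRX4 and none of TBX2 or TBX3 were chosen. TBX2 and TBX3 encode repressors that mark the atrioventricular canal and conduction tissue. The rule gave 684 cells of 5683 in the library, which is 12.0% of the library and 17.8% of its 3842 muscle cells. They are called IRX4-positive cells below, and are set against 1054 muscle cells of the same library with no UMI of IRX4, TBX2 or TBX3, called IRX4-zero cells.

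The series is a single-cell study of heart cells grown from H1, an established line of human embryonic stem cells. Its groups with single-cell data are day 11, day 15 with CHIR and day 15 with the vehicle DMSO, 1 library each, with 15305 cells in all. CHIR is the usual name of a GSK3 inhibitor that turns on canonical Wnt signalling; its dose and time of addition are not given, and the day 11 sample has no treatment in its labels. Live cells were sorted and sequenced at the ends of their transcripts, so a level in CPM (UMIs of a gene per 1000000 UMIs of the class) can be compared between cells for a gene, but not between genes.

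In the embryo the heart tube first forms muscle that expresses a general contractile programme. Chamber identity is then laid over it. IRX4, HEY2 and PRDM16 take part in ventricular and compact-wall identity, and NPPA marks working chamber muscle. ISL1, FGF8 and FGF10 are genes of the second heart field, the progenitor pool that adds muscle at both ends of the tube, and BMP2, BMP4, MSX2 and RSPO3 are expressed around the atrioventricular canal and its neighbouring tissue.

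Each class is 1 set of cells from 1 library, so the differences have no replicates behind them and were not tested. Every interval covers counting error only, at 95%. A gene is called higher or lower when the larger CPM exceeded the smaller by at least 25% and both classes together held at least 100 UMIs. Of 12162 genes with that many UMIs, 14.0% were higher and 12.3% lower in IRX4-positive cells, with a median log2 ratio of 0.02, and the counts for gene groups below are to be read against these shares. IRX4-positive cells had a median of 12122 UMIs and 4366 genes, and IRX4-zero cells 11228 UMIs and 4081 genes. Their median mitochondrial share was 3.39% in IRX4-positive and 3.07% in IRX4-zero cells. The day 11 library shared 6 barcodes with the DMSO library, of which 2 were IRX4-positive cells, and 3 with the CHIR library, of which 1 was.

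IRX4 lies on the reverse strand of chr5:1877413-1887179. Its promoter window and that of IRX2, its nearest Iroquois neighbour, are shown because genes of this cluster differed together. The IRX2 window shares 285 of its 300 bases with that of C5orf38, a transcript that RefSeq names IRX2-DT and that runs the other way. The windows of HEY2 and ISL1 are shown for a ventricular regulator that was higher and a second heart field regulator that was lower in these cells. IRX4 has 3 windows in the table, of which 1 is printed. All come from RefSeq on GRCh38.p14, run from 250 bases before to 50 bases after the start site, and read 5′ to 3′ on the gene's own strand. Capitals mark any match, on either strand, to AGATAA (the GATA motif), AGGTGT (a T-box site), AAGTG (an NKX2-5 core) or ACANNTGT (the Iroquois palindrome, which can overlap the T-box site).
IRX4, chr5:1887130-1887429, minus strand: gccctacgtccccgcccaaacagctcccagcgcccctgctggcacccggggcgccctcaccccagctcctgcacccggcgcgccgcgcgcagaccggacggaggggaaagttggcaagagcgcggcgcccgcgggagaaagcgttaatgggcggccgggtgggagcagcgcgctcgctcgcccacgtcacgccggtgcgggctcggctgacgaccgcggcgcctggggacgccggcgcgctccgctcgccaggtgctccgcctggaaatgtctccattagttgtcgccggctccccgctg
IRX2, chr5:2751628-2751927, minus strand: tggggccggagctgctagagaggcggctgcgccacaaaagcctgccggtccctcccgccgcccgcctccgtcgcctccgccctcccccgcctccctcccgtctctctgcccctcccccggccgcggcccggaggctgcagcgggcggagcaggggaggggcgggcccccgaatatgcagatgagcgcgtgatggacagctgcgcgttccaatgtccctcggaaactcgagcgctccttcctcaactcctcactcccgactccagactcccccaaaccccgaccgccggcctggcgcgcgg
HEY2, chr6:125749382-125749681, plus strand: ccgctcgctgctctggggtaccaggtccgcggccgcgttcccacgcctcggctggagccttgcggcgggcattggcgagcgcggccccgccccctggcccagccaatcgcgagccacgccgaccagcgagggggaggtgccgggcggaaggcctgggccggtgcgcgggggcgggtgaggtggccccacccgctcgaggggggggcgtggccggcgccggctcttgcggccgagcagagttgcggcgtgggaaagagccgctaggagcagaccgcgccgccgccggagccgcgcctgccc
ISL1, chr5:51383198-51383497, plus strand: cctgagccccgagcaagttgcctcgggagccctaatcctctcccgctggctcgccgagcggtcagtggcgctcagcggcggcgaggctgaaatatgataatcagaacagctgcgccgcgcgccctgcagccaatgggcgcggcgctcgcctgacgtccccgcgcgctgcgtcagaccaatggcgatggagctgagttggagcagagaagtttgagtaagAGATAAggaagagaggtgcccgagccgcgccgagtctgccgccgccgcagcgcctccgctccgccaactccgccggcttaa
The windows were rich in G and C, at 75% for IRX4, 73.3% for IRX2, 79.0% for HEY2 and 66.7% for ISL1. The ISL1 window held 1 match, to the GATA motif, and the other windows held none. Among 35116 promoter windows of the same length, 10.3% held AGATAA, 11.4% held AGGTGT, 43.1% held AAGTG and 5.62% held ACANNTGT. A match is a description of letters and no sign of binding.

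The values that chose the cells are given first, as a description. IRX4 had 1478 UMIs in IRX4-positive cells, or 178 CPM (169 to 188), and by construction none in IRX4-zero cells. The number of IRX4 UMIs was 1 in 275 cells, 2 in 200 and 3 in 112, with a highest count of 11. IRX4 was thus chosen on few molecules in most cells, and an IRX4-zero cell may hold IRX4 mRNA that was not captured. The muscle share of IRX4-positive cells ran from 0.4949% to 2.979%, with a median of 1.389%, against a median of 1.172% in IRX4-zero cells. Just inside the threshold, 6 IRX4-positive and 71 IRX4-zero cells lay within 20% above it. Just outside, 20 cells with IRX4 and no TBX2 or TBX3 fell below it, the highest at 0.4793%, and 4 of these were within 20% of the threshold. Of the genes in the rule, cardiac troponin T (TNNT2) stood at 3547 CPM in IRX4-positive and 2656 CPM in IRX4-zero cells, and alpha-actinin (ACTN2) at 569 CPM and 548 CPM in the same order.

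Outside muscle, IRX4 was nearly absent. It had 1.11 CPM in the 1841 non-muscle cells, against 72.4 CPM over all muscle cells. As a background for free RNA, 4 of 155 endoderm cells held an IRX4 UMI (2.58%, 0.708 to 6.48%), at a median depth of 16692 UMIs. Among muscle cells without TBX2 and TBX3, the share with IRX4 was 39.4% (37.1 to 41.7%). After every cell was thinned to 8000 UMIs it was 34.0%, and 0 of 128 endoderm cells then held IRX4, which allows up to 2.84%. Muscle cells that did hold TBX2 or TBX3 had IRX4 at 39.5% (37.4 to 41.6%), and at 33.6% after thinning. The share of muscle cells with IRX4 was therefore about the same with and without UMIs of the T-box pair at day 11. As with IRX4, a cell without these UMIs may hold TBX2 or TBX3 mRNA that was not captured. The shares with IRX4 were 42.1% with DMSO (458 of 1089 cells) and 60.1% with CHIR (203 of 338 cells), or 29.5% and 48.6% after thinning.

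The classes differed in make-up, and the part of this in the differences below was not tested. UMIs of ISL1 were found in 7.16% of IRX4-positive and 28.7% of IRX4-zero cells (endoderm cells, 28.4%), and UMIs of FGF8 or FGF10 in 26.3% and 56.1% in the same order. Counting also SLN, SST and MYH11, at least 1 of these 6 genes was found in 32.6% of IRX4-positive and 67.0% of IRX4-zero cells. The IRX4-zero class was thus a mixture in which more cells carried genes of other muscle or progenitor states. A second set of values, called the restricted comparison below, leaves out every cell with a UMI of any of the 6 genes, a choice made after seeing the data. It keeps 461 IRX4-positive and 348 IRX4-zero cells. In it, 827 of 9717 genes were higher and 1005 lower.

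The label of these cells as ventricular-like was checked on 8 other ventricular genes. Of the 7 with enough UMIs, 4 were higher, 1 was lower and 2 lay between, with a median log2 ratio of 0.66, against 0.02 over all genes. PRDM16, a chromatin regulator of compact-wall muscle, stood at 49.5 CPM in IRX4-positive and 13.2 CPM in IRX4-zero cells, 3.74-fold higher (3.11 to 4.52). HEY2, a repressor that keeps atrial genes off in the mouse ventricle, stood at 56.1 CPM and 17.6 CPM in the same order, 3.20-fold higher (2.71 to 3.78). PRDM16 and HEY2 had larger ratios than FHL2 and MYL3, the other genes of the list that were called higher. FHL2, a LIM protein of the sarcomere, was 2.14-fold higher (2.06 to 2.24), at 655 CPM in IRX4-positive and 305 CPM in IRX4-zero cells. MYL3, the ventricular essential light chain, was 1.57-fold higher (1.53 to 1.62), at 1276 CPM in IRX4-positive and 810 CPM in IRX4-zero cells. LBH, at 248 CPM and 280 CPM, and HAND1, at 92.5 CPM and 109 CPM, lay within the 25% limit. MYL3 did too in the restricted comparison, with a log2 ratio of 0.29.

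The mature ventricular light chain MYL2 was rare. It was found in 39 of 684 IRX4-positive cells (5.70%) and 17 of 1054 IRX4-zero cells (1.61%), with 42 and 21 UMIs, too few for a call. MYH7, the slow myosin that comes to dominate the human ventricle, was 1.42-fold lower, at 44.2 CPM in IRX4-positive and 62.7 CPM in IRX4-zero cells. Its share of cells hardly differed, at 20.2% of IRX4-positive and 19.9% of IRX4-zero cells, and in the restricted comparison its direction turned, with a log2 ratio of 0.51. In the restricted comparison 4 of the 7 ventricular genes were higher and 1 was lower (median log2 ratio 0.37), but the genes were not the same. PRDM16, HEY2 and FHL2 were higher in both, MYH7 took the place of MYL3, and LBH was the lower gene, at -0.40. The log2 ratio of FHL2 was 0.37 there, against 1.10 with all cells. The log2 ratio was 1.09 there for PRDM16 and 0.85 for HEY2, against 1.90 and 1.68 with all cells.

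**Figure D1:**
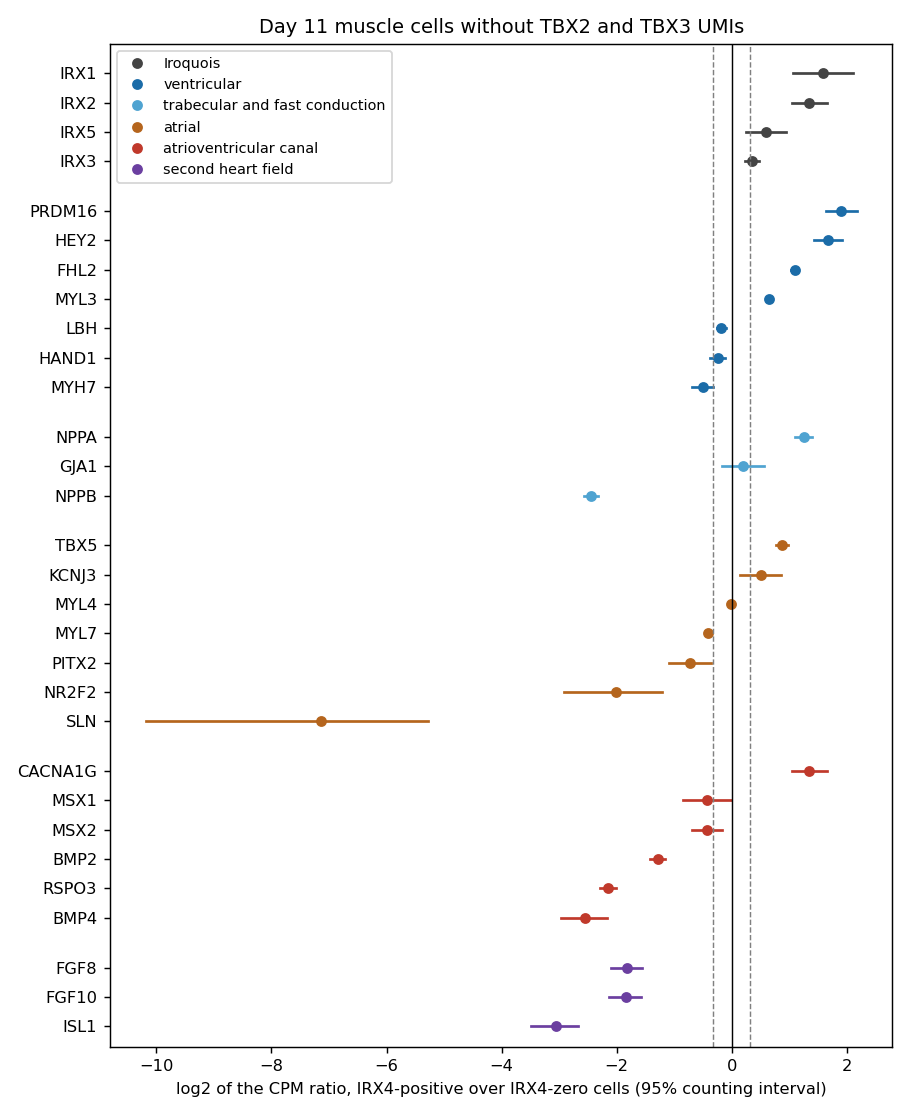
Log2 of the CPM ratio of IRX4-positive over IRX4-zero day 11 muscle cells for genes of 6 lists with at least 100 UMIs, without an added count. Points are ratios, bars are 95% counting intervals and dashed lines mark the 25% limit; PRDM16, HEY2 and the Iroquois genes lie to the right, and SLN, ISL1, BMP4 and NPPB to the left.

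For HEY2 and PRDM16 the shares of cells had the same order as the levels. After thinning to 8000 UMIs, HEY2 was found in 32.4% of IRX4-positive, 13.7% of IRX4-zero and 0.781% of endoderm cells. PRDM16 was found in 29.9%, 9.31% and 7.03% of these classes in the same order, so its share in IRX4-zero cells was close to the background. Without thinning, HEY2 was found in 44.9% of IRX4-positive, 14.7% of IRX4-zero and 7.74% of endoderm cells. HEY2 or PRDM16 was found in 436 of 684 IRX4-positive cells (63.7%) and 233 of 1054 IRX4-zero cells (22.1%). The remaining IRX4-positive cells had a UMI of neither gene, at levels where 1 molecule decides.

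**Figure D2:**
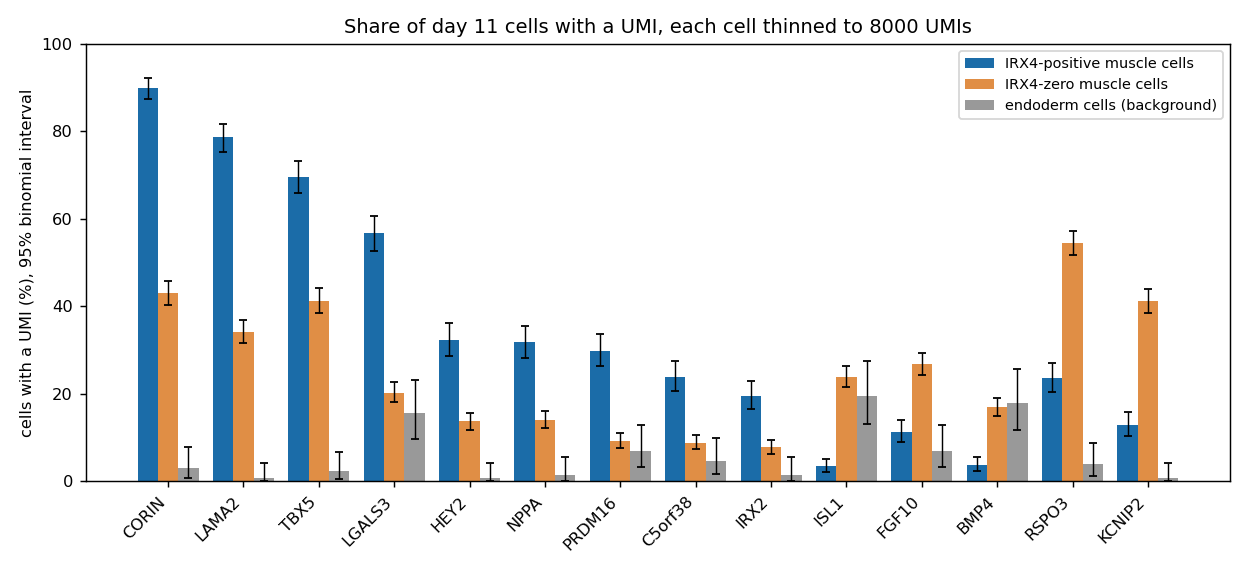
Percent of day 11 cells with at least 1 UMI of 14 genes after each cell was thinned to 8000 UMIs, in 642 IRX4-positive muscle cells, 1246 IRX4-zero muscle cells and 128 endoderm cells, with 95% binomial intervals. LAMA2 was found in 78.7% of IRX4-positive and 34.2% of IRX4-zero cells, and RSPO3 in 23.7% and 54.5% in the same order.

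Genes of trabecular muscle and fast conduction did not move as a block. Of 3 with enough UMIs, 1 was higher, 1 was lower and GJA1, a gap junction protein of working muscle, lay between, at 14.0 CPM in IRX4-positive and 12.2 CPM in IRX4-zero cells. NPPA, the atrial natriuretic peptide and an early marker of chamber muscle, was 2.38-fold higher (2.16 to 2.64), at 122 CPM in IRX4-positive and 51.3 CPM in IRX4-zero cells. It was found in 37.4% of IRX4-positive, 12.9% of IRX4-zero and 1.94% of endoderm cells. In the restricted comparison its log2 ratio was 0.19 and the call ended. NPPB, the B-type natriuretic peptide, was 5.46-fold lower (5.03 to 5.93), at 78.1 CPM in IRX4-positive and 426 CPM in IRX4-zero cells. Few cells set the NPPB values, since 10 cells held 91.0% of its UMIs among IRX4-positive cells and 10 cells held 79.8% among IRX4-zero cells.

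The second heart field genes were lower without exception among the 3 with enough UMIs. ISL1, a LIM homeobox factor of these progenitors, was 8.35-fold lower (6.33 to 11.2), at 6.64 CPM in IRX4-positive and 55.4 CPM in IRX4-zero cells. FGF8 and FGF10, secreted growth factors, were 3.54-fold and 3.59-fold lower. The restricted comparison removes ISL1, FGF8 and FGF10 by its own rule and says nothing on them. LMO2, a LIM-only factor of blood and endothelial development, was 12.0-fold lower, at 2.90 CPM in IRX4-positive and 34.9 CPM in IRX4-zero cells, and its log2 ratio was -3.56 with all cells and -2.91 in the restricted comparison.

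Of 6 genes of the atrioventricular canal, 5 were lower and 1 was higher, with a median log2 ratio of -0.85. BMP4, a signal of the outflow and canal region, was 5.89-fold lower (4.49 to 7.85), at 7.12 CPM in IRX4-positive and 41.9 CPM in IRX4-zero cells. RSPO3, which strengthens Wnt signalling, was 4.42-fold lower (4.01 to 4.88), at 57.3 CPM in IRX4-positive and 254 CPM in IRX4-zero cells. BMP2, which sets up the canal muscle, was 2.44-fold lower (2.23 to 2.67), at 76.4 CPM in IRX4-positive and 186 CPM in IRX4-zero cells. All 3 signals were thus lower. By the rule, neither class held a TBX2 or TBX3 UMI, and whether uncaptured mRNA of the pair differed between them was not tested. The log2 ratios of the 3 signals in the restricted comparison were -1.51 for BMP4, -2.00 for RSPO3 and -1.51 for BMP2. MSX1 and MSX2, homeobox targets of BMP, were each 1.34-fold lower, and the MSX2 call ended in the restricted comparison. CACNA1G, a low-voltage calcium channel listed for slow conduction, went the other way and was 2.55-fold higher (2.07 to 3.15), with a log2 ratio of 1.35, against 0.54 in the restricted comparison.

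On the atrial list 7 genes had enough UMIs, of which 4 were lower and 2 higher in IRX4-positive cells. MYL7, the light chain that early heart muscle and the atrium share, was 1.33-fold lower (1.32 to 1.34), at 12517 CPM in IRX4-positive and 16693 CPM in IRX4-zero cells. NR2F2, the atrial nuclear receptor, had 15 UMIs in IRX4-positive and 88 in IRX4-zero cells, 4.04-fold lower (2.32 to 7.53). SLN, the atrial brake on the calcium pump, had 2 UMIs in IRX4-positive and 409 in IRX4-zero cells, a 141-fold difference with an interval of 38.8 to 1168. SLN was found in 66 IRX4-zero cells, and 10 of them held 69.7% of its UMIs. TBX5, the T-box factor of the atria and left ventricle, was instead 1.84-fold higher (1.70 to 1.98), at 184 CPM in IRX4-positive and 100 CPM in IRX4-zero cells. Its log2 ratio was 0.13 in the restricted comparison, so the call ended there. KCNJ3, a subunit of the acetylcholine-gated potassium channel, was 1.42-fold higher, at 15.6 CPM in IRX4-positive and 11.0 CPM in IRX4-zero cells, and its call ended there too.

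All 4 of the other Iroquois genes with enough UMIs were higher. IRX1 was 2.99-fold higher (2.09 to 4.34), at 11.7 CPM in IRX4-positive and 3.91 CPM in IRX4-zero cells. IRX2 was 2.55-fold higher (2.07 to 3.16), at 29.9 CPM in IRX4-positive and 11.7 CPM in IRX4-zero cells. These are the genes of the chromosome 5 cluster that also holds IRX4. IRX5 and IRX3, of another chromosome, were 1.51-fold and 1.28-fold higher, but in the restricted comparison IRX3 lay at a log2 ratio of -0.09. IRX1 and IRX2 stood at 0.50 and 0.82 there, against 1.57 and 1.35 with all cells. C5orf38, whose promoter window overlaps that of IRX2 above, was 2.92-fold higher (2.40 to 3.56), at 38.2 CPM in IRX4-positive and 13.1 CPM in IRX4-zero cells, and its log2 ratio was 0.74 in the restricted comparison, against 1.54. Of 30 genes listed within 2 Mb of IRX4, 17 had enough UMIs, of which 6 were higher and 0 lower, with a median log2 ratio of 0.24; this window was chosen after values were seen.

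Factors of the general heart muscle programme were similar. Of 11 cardiac transcription factors, 1 was called, TBX5. NKX2-5 stood at 527 CPM in IRX4-positive and 507 CPM in IRX4-zero cells, a ratio of 1.04 (1.00 to 1.08), and GATA4 at 408 CPM and 398 CPM in the same order, a ratio of 1.02 (0.979 to 1.07). Of 16 sarcomere genes, 4 were higher and 4 lower. Those higher were MYBPC3, TCAP, MYOM2 and LMOD2, and those lower were ACTC1, MYL7, DES and MYH7. The MYBPC3 and ACTC1 calls ended in the restricted comparison and MYOM2 turned, to a log2 ratio of -0.24. MB, the oxygen carrier myoglobin, was 1.95-fold higher (1.86 to 2.04), at 473 CPM in IRX4-positive and 243 CPM in IRX4-zero cells, and 3 of 9 muscle energy genes were higher and 0 lower. With the restricted cells 1 was higher, MB, and 1 lower, CKMT2, while the calls of CKM and CPT1B ended. Of 9 calcium handling genes, 1 was lower (SLN, above) and 3 were higher, the exchanger SLC8A1 at 1.40-fold, the L-type channel CACNA1C at 1.41-fold and triadin (TRDN) at 1.32-fold. Of these calcium genes 0 were higher in the restricted comparison.

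Signalling targets lay on both sides. Of 8 BMP target genes, 0 were higher and 3 lower, namely BAMBI, ID3 and ID4 at 1.72-fold, 1.51-fold and 1.29-fold, of which ID3 was not called in the restricted comparison. Of 7 Wnt target genes, APCDD1, an inhibitor of the pathway, was 3.19-fold higher (log2 1.67, and 0.92 in the restricted comparison) and RNF43 1.40-fold higher, a call that ended in the restricted comparison, and DKK1 and LEF1 were 4.07-fold and 1.28-fold lower. DKK1 was found in only 25 IRX4-positive and 63 IRX4-zero cells, and 10 cells held 75.4% and 46.9% of its UMIs in the same order. AXIN2, the usual readout of canonical Wnt signalling, stood at 10.3 CPM in IRX4-positive and 9.32 CPM in IRX4-zero cells, within the 25% limit. Of 5 Notch genes, HES1 and HES4 were 1.88-fold and 1.89-fold lower, and HES4 lay at a log2 ratio of -0.08 in the restricted comparison. KCNIP2, the subunit of the transient outward potassium current, was 4.89-fold lower (4.18 to 5.74), found in 18.1% of IRX4-positive, 49.6% of IRX4-zero and 3.23% of endoderm cells, and its log2 ratio was -2.29, against -1.46 in the restricted comparison. Of 9 immediate early and heat shock genes, which react to handling and stress, 6 were lower and 0 were higher. Among the lower were FOS at 1.99-fold, EGR1 at 2.96-fold and the heat shock gene DNAJB1 at a log2 ratio of -0.33. In the restricted comparison 4 of the 9 were lower and 0 higher.

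Most cell cycle genes were higher. Of 16, 12 were higher and 0 lower in IRX4-positive cells, with a median log2 ratio of 0.70. MKI67, the proliferation antigen, was 1.95-fold higher (1.61 to 2.37), at 30.5 CPM in IRX4-positive and 15.6 CPM in IRX4-zero cells. BIRC5, a mitotic survival factor, was 1.99-fold higher (1.65 to 2.41), at 32.0 CPM in IRX4-positive and 16.1 CPM in IRX4-zero cells. Much of these levels sat in few cells, since 10 cells held 43.1% of the MKI67 UMIs among IRX4-positive and 51.1% among IRX4-zero cells. For BIRC5 these shares were 28.7% and 36.3%. UMIs of MKI67 or TOP2A were found in 15.6% (13.0 to 18.6%) of IRX4-positive and 8.35% (6.75 to 10.2%) of IRX4-zero cells. After thinning, MKI67 was found in 10.3% of IRX4-positive and 4.90% of IRX4-zero cells, and in 9.38% of endoderm cells, which also divide. MYCN, a growth regulator chosen after its values were seen, was 2.59-fold higher (2.18 to 3.08). In the restricted comparison 6 of the 16 cell cycle genes were higher and 0 lower, and TOP2A lay at a log2 ratio of -0.05.

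Markers of cells other than heart muscle were mostly lower. Smooth muscle markers were lower in 4 of 4 cases, with a summed level of 419 CPM in IRX4-positive, 1476 CPM in IRX4-zero and 3736 CPM in non-muscle cells. The actin-binding TAGLN stood at 202 CPM in IRX4-positive and 883 CPM in IRX4-zero cells, and 10 cells held 58.8% of its UMIs among IRX4-positive cells and 34.7% among IRX4-zero cells. Its log2 ratio was -2.13, and -0.97 in the restricted comparison. Mesenchymal markers were lower in 3 of 5 cases, with sums of 455 CPM, 834 CPM and 3201 CPM in the same classes. Of the epicardial markers 4 of 5 were lower and ALDH1A2, a retinoic acid enzyme, was 1.27-fold higher (log2 -0.52 in the restricted comparison), with sums of 21.7 CPM in IRX4-positive and 44.2 CPM in IRX4-zero cells. Endoderm markers summed to 97.1 CPM in IRX4-positive and 141 CPM in IRX4-zero cells, against 9525 CPM in endoderm cells, and AFP had 1 UMI in IRX4-positive cells. Endothelial markers were called in 1 of 2 cases (EMCN, lower). Their sums were close, at 58.55 CPM in IRX4-positive and 61.24 CPM in IRX4-zero cells. PECAM1 and CDH5 had 6 and 15 UMIs in IRX4-positive cells, against 2 and 13 in IRX4-zero cells. KDR, a receptor that endothelial and cardiac progenitor cells share, was within the limit (log2 ratio 0.21, and -0.35 in the restricted comparison) and was found in 37.3% of IRX4-positive and 29.0% of IRX4-zero cells. IRX4-positive cells had the higher median muscle share, as given above. With cells weighted by muscle share, a choice made after seeing the data, 4 of 4 smooth muscle markers were still lower. The mesenchymal markers then had 2 of 5 lower and 1 higher, LUM, at a log2 ratio of 0.83. Of the epicardial markers 3 of 5 were lower, and WT1 moved from -1.44 to -0.01. The part of these markers in the other differences was not tested.

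Over the whole table, the 15 genes highest and the 15 lowest by a fixed rule of ratio and level were named. The highest included, beside PRDM16, HEY2 and C5orf38, the complement regulator CSMD1 at 4.59-fold (4.05 to 5.22), the galectin LGALS3 at 3.47-fold, the laminin chain LAMA2 at 3.35-fold and the intercalated disc protein MYZAP at 2.85-fold. CORIN, the protease that activates natriuretic peptides, was 3.04-fold higher (2.87 to 3.22), at 461 CPM in IRX4-positive and 152 CPM in IRX4-zero cells, and was found in 629 of 684 and 446 of 1054 cells. KCNH7 and KCNQ3, potassium channel subunits, were 2.93-fold and 2.88-fold higher. PLCXD3, CCDC60 and the transcripts AL365259.1, AC124852.1 and AC109466.1 completed the list, between 2.97-fold and 4.90-fold. The genes of this list were spread over many cells, each with UMIs in at least 126 IRX4-positive cells.

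The lowest were of a different make-up. FN1, the matrix protein fibronectin, was 6.32-fold lower, at 124 CPM in IRX4-positive and 782 CPM in IRX4-zero cells, and was found in 74.3% of IRX4-zero cells. The 6 genes ANO3, FIBIN, LRP1B, NPY, AC127526.2 and SPON1 were between 6.44-fold and 30.3-fold lower, and each was found in at least 13.6% of IRX4-zero cells. Others came from few cells. All 440 SST UMIs of IRX4-zero cells sat in 9 cells, against 1 UMI in IRX4-positive cells. For the smooth muscle kinase MYLK, the skeletal actin ACTA1 and the chemokine CXCL14, 10 IRX4-zero cells held 86.3%, 80.7% and 64.6% of the UMIs. RGS4, a regulator of G protein signalling, was 8.89-fold lower. The restricted comparison removes ISL1, SLN and SST by its own rule. MYLK, with only 18 UMIs in IRX4-positive cells before the restriction, turned there, to a log2 ratio of 0.67. Apart from MYLK and the removed genes, the 30 named genes stayed past the 25% limit in the same direction, with smaller ratios for the 15 higher ones. Their log2 ratios ran from 1.51 (MYZAP) to 2.28 (AL365259.1) with all cells, and from 0.44 (CCDC60) to 1.26 (AL365259.1) in the restricted comparison. RGS4 stood at -3.13 with all cells and -0.91 there.

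The number of IRX4 UMIs was then used to see how the IRX4-positive cells vary among themselves. The genes shown differed most at the step between 0 and 1 UMI. After thinning to 8000 UMIs, CORIN stood at 179 CPM with 0, 451 CPM with 1, 481 CPM with 2 and 533 CPM with 3 or more IRX4 UMIs. HEY2 stood at 23.0, 50.7, 48.1 and 74.8 CPM in the same order, and FHL2 at 341, 689, 678 and 696 CPM. MYL7 was lower at each step, with intervals apart. It stood at 16735, 12582, 11886 and 9500 CPM in that order. RSPO3 stood at 250.5, 82.7, 48.1 and 35.0 CPM, with overlapping intervals at the last step. IRX2, the neighbour of IRX4, stood at 12.3, 24.6, 35.3 and 40.9 CPM. The 3 or more class held 107 cells, and the intervals of HEY2, CORIN, FHL2 and IRX2 overlapped at each step above 1 UMI.

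**Figure D3:**
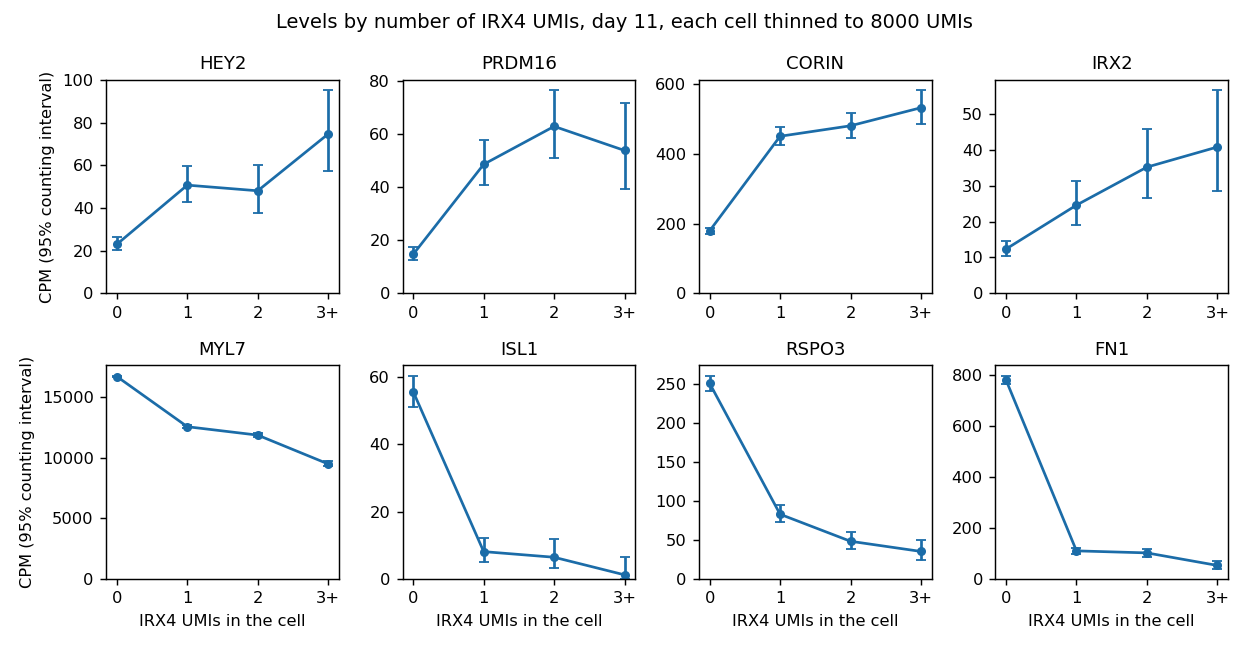
CPM of 8 genes in day 11 muscle cells without TBX2 and TBX3, by number of IRX4 UMIs, after each cell was thinned to 8000 UMIs; 1246, 340, 195 and 107 cells from left to right, with 95% counting intervals. HEY2, PRDM16, CORIN and IRX2 were lowest at 0 IRX4 UMIs, and MYL7, ISL1, RSPO3 and FN1 were highest there.

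The IRX4-positive cells were also split by genes other than IRX4. The 307 IRX4-positive cells with HEY2 had NPPA at 88.3 CPM, against 153 CPM in the 377 cells without HEY2, a ratio of 0.578 (0.506 to 0.659). The reverse split gave no such gap, with HEY2 at 53.5 CPM in the 256 cells with NPPA and 57.9 CPM in the 428 without, a ratio of 0.923 (0.761 to 1.12), and 10 cells held 31.9% of the NPPA UMIs. NPPB was also lower with HEY2, at 8.43 CPM against 141 CPM, with the few cells named above. PRDM16 stood at 55.1 CPM in cells with HEY2 and 44.4 CPM in cells without it, a ratio of 1.24 (1.02 to 1.52), and CORIN at 462 CPM and 460 CPM in the same order. Cells with HEY2 were the deeper ones, at a median of 12800 UMIs against 11534 UMIs. The 107 cells with MKI67 or TOP2A had MYL3 at 994 CPM, against 1334 CPM in the 577 without, a ratio of 0.745 (0.704 to 0.789). In the cells with MKI67 or TOP2A, MB stood at 385 CPM and NPPA at 69.4 CPM, against 491 CPM and 133 CPM without, while IRX4 itself stood at 171.5 CPM and 180 CPM in the same order.

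The condition on TBX2 and TBX3 divided IRX4-positive muscle far less than IRX4 divided TBX2- and TBX3-free muscle. IRX4-positive cells without the pair were set against the 831 IRX4-positive muscle cells that held TBX2 or TBX3 UMIs. Those 831 cells held 1118 UMIs of TBX2 and 382 of TBX3, few per cell. Some cells without the pair may therefore hold its mRNA uncaptured, which would make the sides alike. Of 11984 genes, 2.67% were higher and 5.08% lower. None of the 7 ventricular genes was called, and HEY2 stood at 56.1 CPM without and 57.2 CPM with TBX2 or TBX3, a ratio of 0.981 (0.868 to 1.11). Of the canal genes, 4 of 6 were lower without the pair: RSPO3 at 57.3 CPM against 100.5 CPM, MSX2 at 21.9 CPM against 35.4 CPM, BMP2 at 76.4 CPM against 108 CPM and BMP4 at 7.12 CPM against 10.3 CPM. NPPB was higher without it, at 78.1 CPM against 21.0 CPM, as was TAGLN, at 202 CPM against 105 CPM. Few cells set these values, since 10 cells without the pair held 91.0% of their NPPB UMIs and 10 held 58.8% of their TAGLN UMIs. ISL1 was lower, at 6.64 CPM without and 12.4 CPM with TBX2 or TBX3.

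The same rule was applied to the day 15 tables, each with its own threshold, as values that did not choose the day 11 cells. With DMSO it gave 458 IRX4-positive and 631 IRX4-zero cells, and with CHIR 203 and 135. Of 9242 genes with DMSO 13.4% were higher and 15.5% lower. Of 4908 genes with CHIR, where the classes held fewer UMIs, 7.84% were higher and 10.2% lower. CHIR cells also differed in depth, at a median of 14370 UMIs in IRX4-positive and 10493 UMIs in IRX4-zero cells.

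In the DMSO library 7 of 8 ventricular genes were higher and 1 lower. HEY2 stood at 112 CPM in IRX4-positive and 38.4 CPM in IRX4-zero cells, 2.91-fold higher (2.55 to 3.32). MYL2, too rare at day 11, stood at 24.8 CPM in IRX4-positive and 7.30 CPM in IRX4-zero cells, 3.40-fold higher (2.52 to 4.62). MYL3 was 1.86-fold higher there, and ISL1 and RSPO3 were lower, with log2 ratios of -3.32 and -2.42. With CHIR, 1 of 5 ventricular genes was higher, PRDM16, at a ratio of 1.29 whose interval of 0.837 to 2.05 spans 1. HEY2 had 69 UMIs in IRX4-positive and 17 in IRX4-zero CHIR cells, a ratio of 2.10 (1.22 to 3.81) with too few UMIs for a call. IRX1 and IRX2 were higher in both day 15 libraries, IRX2 at 1.87-fold with DMSO and 1.61-fold (1.35 to 1.92) with CHIR, where the interval of IRX1 spans 1 (0.949 to 2.07).

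Some genes stood on opposite sides at day 11 and day 15. NPPA was higher in IRX4-positive cells at day 11, but with DMSO it stood at 157 CPM in IRX4-positive and 369 CPM in IRX4-zero cells, and with CHIR at 25.1 CPM and 45.2 CPM. MYH7 with DMSO stood at 79.3 CPM in IRX4-positive and 53.8 CPM in IRX4-zero cells, a ratio of 1.47 (1.30 to 1.68). NR2F2, in contrast, was lower in IRX4-positive cells on both days. It stood at 5.65 CPM in IRX4-positive and 46.3 CPM in IRX4-zero DMSO cells, against 1.81 CPM and 7.32 CPM at day 11. SHOX2, a factor of the sinus node, had 8 UMIs in IRX4-positive and 263 in IRX4-zero DMSO cells. At day 11 it had 1 and 3, too few to give a side. Of the cell cycle genes, 11 of 13 were higher with DMSO and 0 lower, and with CHIR 0 of 8 were higher and 4 lower. The difference of these ratios between libraries was not tested, since each condition is 1 library.

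**Figure D4:**
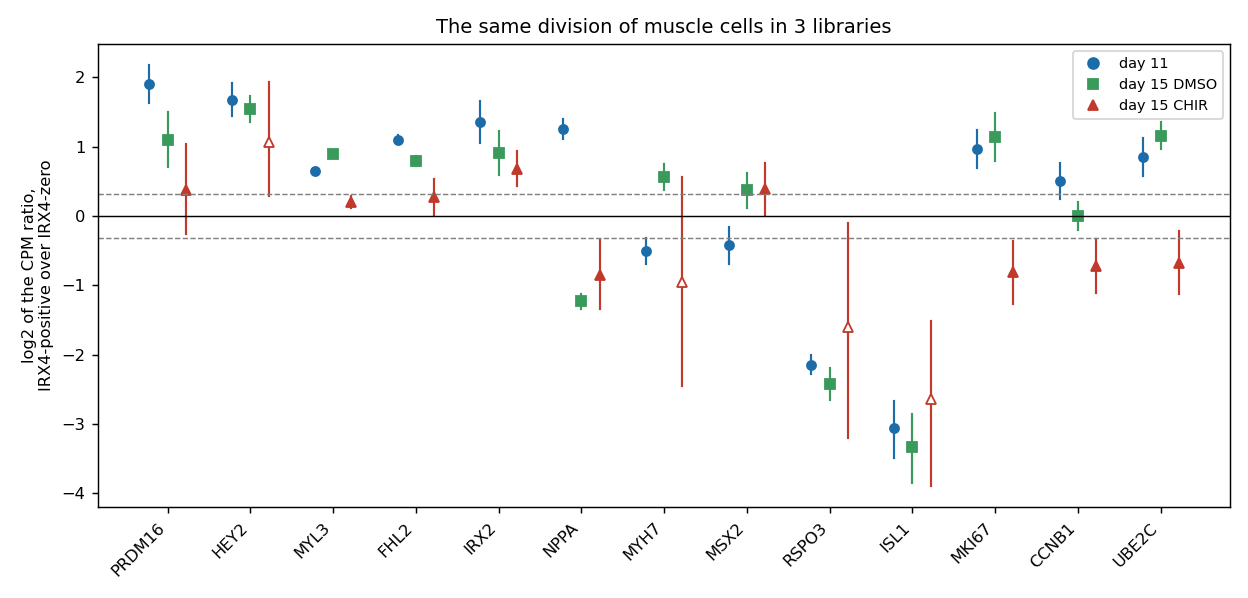
Log2 of the CPM ratio of IRX4-positive over IRX4-zero muscle cells without TBX2 and TBX3 at day 11 (circles), day 15 DMSO (squares) and day 15 CHIR (triangles), with 95% counting intervals. Open symbols had under 100 UMIs over both classes and dashed lines mark the 25% limit; HEY2 lay above 0 in all 3 libraries, while NPPA, 2.38-fold higher at day 11, lay at -1.23 with DMSO and -0.85 with CHIR.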

How the data were processed

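Single-cell libraries were prepared with droplets that tag each transcript end with a UMI. The submitters' processing notes name Cell Ranger 6.1.1, the GRCh38 build and, at day 11, R 4.1.0 with Seurat 4.3.0. How intronic reads were handled is not stated there. What the authors deposited are raw counts of UMIs, whole numbers for each gene in each cell, without normalisation. Their cells had already been filtered, as day 11 cells held between 1811 and 5999 genes. The day 11 library held 75906387 UMIs, the CHIR library 81076689 and the DMSO library 65675862. For the day 11 sample, the dissociation text in the labels speaks of day 15.

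Cells were chosen by the rule in the report, and no cell was removed otherwise. UMIs of a class were summed per gene and divided by all UMIs of the class (CPM). For a ratio, the 95% interval came from the Clopper-Pearson bounds on 1 class's part of both classes' UMIs of the gene. Log2 ratios were taken after adding 0.5 UMIs to either class. Shares have exact binomial intervals. Molecules of a cell are not independent, so these intervals cover counting error only. Thinning drew 8000 UMIs per cell without replacement, left out shallower cells (87 IRX4-positive and 192 IRX4-zero at day 11) and applied the rule again; a cell that loses its only IRX4 or T-box UMI changes class, so class sizes differ. Scrublet, in scanpy 1.11.5, called 1 of the day 11 cells as a doublet and so did not work; doublets stayed in, and an alternative left out the 6% with the highest scores. Endoderm cells were non-muscle cells with at least 10 UMIs of AFP, APOA1, APOA2 and TTR, so their level of these genes follows from the choice. Scaling alternatives used TMM factors of edgeR 4.0.16 and median-ratio size factors; neither tool's test was run. The ratio and its interval were checked on simulated data. Python 3.11.15 was used.

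The genes named outside the lists were the 15 highest and 15 lowest ratios among genes outside the rule with at least 100 UMIs, at least 20 CPM in the higher class, an interval on 1 side of 1 and a depth-weighted ratio past the 25% limit the same way. A gene of the trabecular and fast conduction list is not reported here and was left out of that list's counts. The cells, gene lists and tests were chosen with earlier results of these data known. The H3K27ac peak list and input chromatin of day 15 CHIR cells were not used here. Columns of other samples in the tables numbered 0.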

Additional observations from a re-analysis of the deposited data

Results flagged for a closer look

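The following genes were called in 1 direction at day 11 and in the opposite direction in a day 15 library; as each condition is 1 library, the difference between libraries was not tested. Values are log2 CPM ratios of IRX4-positive over IRX4-zero muscle cells without TBX2 and TBX3. For NPPA the ratio was -1.23 with DMSO and -0.85 with CHIR, while NPPA was 2.38-fold higher at day 11. For MYH7 it was 0.56 with DMSO, against -0.50 at day 11. For MSX2 it was 0.37 with DMSO and 0.38 with CHIR, against -0.42 at day 11. For triadin (TRDN) it was -0.38 with CHIR, against 0.40 at day 11. For 4 cell cycle genes the ratio with CHIR was -0.82 (MKI67), -0.72 (CCNB1), -0.51 (CCNB2) and -0.68 (UBE2C), against 0.96, 0.50, 0.80 and 0.85 at day 11. The CHIR classes held 203 and 135 cells, and NPPA had 73 and 68 UMIs there. Without cells holding ISL1, FGF8, FGF10, SLN, SST or MYH11 UMIs, the day 11 ratio of MYH7 was 0.51, on the same side as with DMSO. The day 11 calls of NPPA (0.19), MSX2 (-0.32), TRDN (0.10), CCNB1 (0.0096), CCNB2 (0.31) and UBE2C (0.10) also ended there, and that of MKI67 (0.48) did not.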

How the results depend on the processing

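No paired analysis was possible because each single-cell condition is 1 library, and the chromatin samples that share replicate numbers were not used here. At day 11, 1706 genes were higher and 1495 lower. These became 2956 and 2581 with at least 20 UMIs per gene and 514 and 615 with 1.5-fold as the limit, as more genes enter or fewer pass. Without cells holding ISL1, FGF8, FGF10, SLN, SST or MYH11 UMIs (chosen after seeing the data) 827 were higher, with fewer cells in each class. The share of muscle cells with IRX4 (39.4%) was 46.0% with a muscle threshold of 0.5 of the percentile, 28.0% with at least 2 IRX4 UMIs and 34.0% after thinning. With CHIR, 638 genes were higher after weighting by depth, against 385; the cause was not tested. Directions turned without the cells named above for MYLK (0.67, on few UMIs), MYH7 (0.51), IRX3 (-0.093), MYOM2 (-0.24), RNF43 (-0.0087), ALDH1A2 (-0.52) and TOP2A (-0.051). They also turned without cycling cells for CCNB1 (-0.61) and RRM2 (-0.30), with TBX2 and TBX3 ignored for CPT1B (-0.020), and weighted by muscle share, a choice also made after seeing the data, for COL1A1 (0.0062). With TMM factors 1484 genes were higher and 1705 lower. Of 119 called genes of the lists or named, 108 stayed past the 25% limit after thinning and 116 after weighting by depth; of all 3201 called genes, 2434 and 3056 did, and 67 turned on thinning. Depth limits MYL2, NR2F1 and most CHIR values.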

Other observations

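Other neighbours of IRX4 outside the Iroquois family were also higher in IRX4-positive cells, an observation made after values were seen. MRPL36, a subunit of the mitochondrial ribosome that lies 79 kb from IRX4 (between the lower coordinates of both genes, as below), stood at 222.5 CPM in IRX4-positive and 130 CPM in IRX4-zero day 11 cells, 1.71-fold higher (1.60 to 1.83). Among 49 MRPL genes with enough UMIs it had the highest log2 ratio, 0.78, against a range of -0.31 to 0.44 for the others and a median of 0.04 over all 49. It ranked 1 of 49 with DMSO too, at 0.51, but 7 of 48 with CHIR, at 0.26. Over the day 11 alternatives its log2 ratio ran from 0.46 to 0.81. NDUFS6, a subunit of respiratory complex I that lies 76 kb away and whose 5′ end overlaps that of MRPL36 in RefSeq, stood at 575 CPM in IRX4-positive and 436 CPM in IRX4-zero cells, 1.32-fold higher (1.27 to 1.37). It had the highest ratio of 8 NDUFS genes at day 11, and its log2 ratio over the alternatives ran from 0.16 to 0.43. The NDUFS6 call ended in the restricted comparison (0.16), with a muscle threshold of 0.5 of the percentile (0.27) and weighted by muscle share (0.27). With CHIR NDUFS6 was not called either, at 0.19. LINC02116, a transcript at 21 kb, had 46 UMIs in IRX4-positive and 15 in IRX4-zero day 11 cells, a ratio of 4.45 (2.44 to 8.58). Its log2 ratio over the alternatives ran from 0.48, without cells holding genes of other muscle states, to 2.41. With DMSO it had 44 UMIs in IRX4-positive and 12 in IRX4-zero cells. Whether these ratios depend on their distance from IRX4 was not tested.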
